A study of Mus musculus with 17 samples.

Results

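The loci described here are transcribed regions of the mouse mammary gland to which the authors' table gives no gene name, only a locus number. Of the 30843 loci listed, 8119 had no name, and 1968 of these reached 1 FPKM (fragments counted on a transcript, scaled to its length and to the library's size) in at least 1 of 8 columns. A locus was called present in a genotype at 1 FPKM or more and absent under 0.1 FPKM, separately in the single-end and in the paired-end columns. It was called restricted when all 4 genotypes were called, some were present and some absent, and both layouts gave the same pattern. The loci were thus chosen by their FPKM in these same columns, so the levels and patterns below are a description without a test. Polyadenylated RNA of whole mammary glands from nulliparous female C57Bl/6 mice had been sequenced in 17 libraries of 4 genotypes. Wild type (WT) had 2 single-end libraries and 1 paired-end library. AROM mice carried a tetracycline-operator CYP19A1 (aromatase) transgene and CERM mice a tetracycline-operator Esr1 (estrogen receptor alpha) transgene. Both also carried MMTV-rtTA, the transactivator driven by the mouse mammary tumor virus promoter, and each had 2 single-end and 3 paired-end libraries. BRCA mice were Brca1fl11/fl11/MMTV-Cre/p53+/-, that is, Brca1 deleted by a Cre of the same promoter and 1 p53 allele lost, with 2 libraries in each layout. The MMTV promoter, most active in mammary epithelium, was thus common to AROM, CERM and BRCA. The labels say that libraries were sequenced by both methods, so the layouts may share animals and are not separate experiments. They give neither ages nor drug treatment, nor whether animals were pooled.

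Assemblers such as Cufflinks build transcripts from aligned reads without needing an annotated gene. A locus without a name can be a long noncoding RNA, a pseudogene, a transcribed repeat, a detached piece of a known gene's untranslated region, or a gene that the annotation used did not hold. FPKM divides by transcript length, so a few reads on a very short locus give a large value. The table holds neither positions nor sequences of these loci, and none are printed.

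Each column is the authors' single value per locus, so no spread between replicates can be given and none of the differences was checked in replicates. The depth behind the columns is unknown. In both WT columns many values carry the endless decimals of a division by 3, 46.7% in the single-end and 43.3% in the paired-end column, against at most 0.0227% in the other 6. The labels give 2 and 1 WT libraries, so these decimals do not follow the number of libraries. At 163 of the 1968 unnamed loci (8.28%), and at 3.52% of all 30843 loci, 3 times the single-end WT value was below the paired-end one. At 593 of the unnamed loci 3 times the paired-end WT value was below the single-end one. At the 163 loci the single-end value cannot be a mean of 3 that includes the deposited paired-end value. Of the markers, the luminal genes Krt8, Krt18, Epcam and Elf5 were between 21.1 and 227 FPKM in all 8 columns and summed to between 203 and 694. The sums for 2 other tissues were higher. The adipocyte genes Adipoq, Plin1, Fabp4 and Lep summed to between 7390 and 21197 FPKM, and the skeletal muscle genes Acta1, Ckm, Myh4 and Tnnc2 to between 7048 and 22138. Single adipocyte genes were not always higher: in the single-end WT column Lep was at 73.4 FPKM and Elf5 at 108. Krt5 and Krt14 had no locus of their own under those symbols.

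The cases named for this work were 4 loci with signal in AROM and CERM, the genotypes that share MMTV-rtTA. XLOC_006497 was at 35.5 FPKM in AROM and 36.6 in CERM in the single-end columns, and at 56.8 and 112 in the paired-end columns. It was listed at 0 in WT and BRCA in both layouts. XLOC_007602 followed the same pattern, with 6.30 FPKM in AROM and 13.6 in CERM single-end, 75.4 and 302 paired-end, and 0 in all 4 WT and BRCA columns. These 2 were the unnamed loci with this pattern in both layouts, beside 0.0125% of all 15948 loci that reached 1 FPKM and none of the 13980 named ones. In the paired-end columns alone 40 unnamed loci had the pattern, and in the single-end columns 4. The summed skeletal muscle genes were also higher in AROM and CERM, at 19894 and 22138 FPKM single-end against 7048 in WT and 9314.5 in BRCA, and at 13200 and 16338 paired-end against 12021 and 9328. Ckm and Tnnc2 were higher in AROM and CERM in both layouts. Paired-end, Acta1 in AROM (5598) was below WT (5661), and Myh4 in AROM (818) was below BRCA (1130). The adipocyte genes summed to 21197 in AROM and 14514 in CERM paired-end, against 9121 in WT and 7390 in BRCA. Single-end, their sum in CERM (9413) was below WT (12483). The part of muscle and adipocyte RNA in the AROM and CERM loci was not tested.

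Of the numbers directly beside each locus, 1 had signal in the same genotypes at lower levels and the other did not. XLOC_006498 was at 0.987 FPKM in AROM and 1.74 in CERM single-end, and at 0.896 and 1.34 paired-end. XLOC_007601 was at 0.375 FPKM in AROM and 2.02 in CERM single-end, and at 0.184 and 1.98 paired-end. Both were listed at 0 in all 4 WT and BRCA columns, and both missed the pattern because AROM stayed under 1 FPKM. On the other sides, XLOC_006496 and XLOC_007603 were between 0.0241 and 0.417 FPKM in all columns. XLOC_006499, a further number on, had single-end values of 145 FPKM (WT), 61.4 (AROM), 0 (CERM) and 46.8 (BRCA), and was present in all 4 genotypes paired-end. Neighbouring numbers can be pieces of 1 transcript, so they are not separate observations.

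The other 2 cases did not repeat. XLOC_019271 was at 12.2 FPKM in AROM and 3.35 in CERM single-end, with 0.0385 in WT and 0 in BRCA. In the paired-end columns it was present everywhere, highest in WT at 238 FPKM and then 72.5 in AROM, 54.7 in CERM and 17.5 in BRCA. XLOC_023578 was at 1.83 FPKM in AROM and 1.78 in CERM single-end and at 0 in WT and BRCA. Its paired-end values were 3.87 in CERM, 0.620 in WT, 0.605 in BRCA and 0.127 in AROM, so AROM went from the highest genotype to the lowest. XLOC_019271 lies 1 number before Vmn1r3, a vomeronasal receptor gene at 0 FPKM in 7 of 8 columns, and 2 before Tmem68.

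XLOC_000854, picked after its values were seen, missed the rule through 1 WT value. It was at 11.0 FPKM in AROM and 7.65 in CERM single-end and at 16.5 and 30.2 paired-end. WT was at 0.132 single-end, above the 0.1 limit, and at 0 paired-end, and BRCA was at 0.0978 and 0.0520. A further rule was chosen after the values were seen. It replaced the limit for absence by a 10-fold distance between the lowest present and the highest absent value over both layouts. By it XLOC_000854, XLOC_006497 and XLOC_007602 were the 3 unnamed loci that set AROM and CERM above WT and BRCA. No named locus did. Over all genotype splits 0.972% of all loci met this rule. No unnamed locus set WT and BRCA above AROM and CERM in this way, and 2 named loci did. Since the rule was chosen with the values known, nothing is read from these counts. XLOC_000854 is numbered between Als2cr12 and Trak2, a gene of mitochondrial transport. Trak2 was between 10.4 and 15.3 FPKM in the 8 columns and Als2cr12 between 1.64 and 3.52, so both flanking genes were present in every genotype. In the paired-end columns Als2cr12 was higher in AROM (3.09) and CERM (2.77) than in WT (1.92) and BRCA (1.64), and in the single-end columns CERM (2.11) was below WT (3.13).

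**Figure D1:**
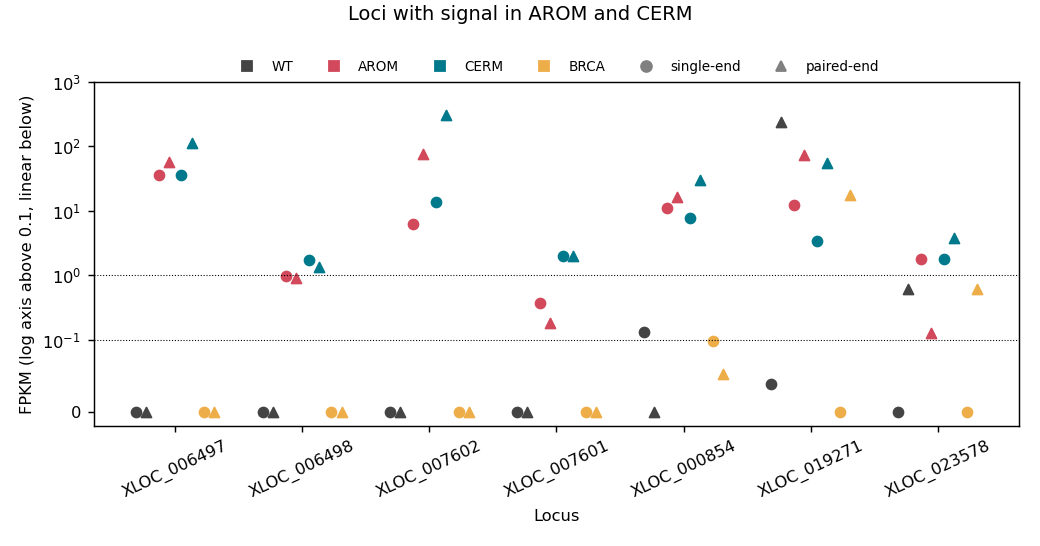
FPKM (log axis above 0.1, linear below) of 7 loci with signal in AROM and CERM, by genotype (colour) and layout (circle single-end, triangle paired-end); dotted lines mark 0.1 and 1 FPKM. WT and BRCA points lie at 0 for XLOC_006497, XLOC_006498, XLOC_007602 and XLOC_007601, while the paired-end WT point of XLOC_019271 lies at 238.

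Patterns over the 4 genotypes were next counted for all 1968 loci. In 736 of them every genotype was called present or absent in both layouts, and in the other 1232 at least 1 value lay between the limits. The patterns of the 2 layouts were the same for 458 loci, of which 387 were present in all 4 genotypes and 71 were restricted. The 278 others had different patterns, among them 47 present in all genotypes of 1 layout and absent in all of the other. The 71 restricted loci made up 3.61% of the unnamed loci, beside 0.583% of all loci that reached 1 FPKM and 0.157% of the named ones (22 of 13980). They were 33.3% of the 213 unnamed loci restricted in the single-end columns and 23.1% of the 307 restricted in the paired-end columns.

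Calls of the same genotype were then compared between the layouts. Of the 1238 unnamed loci present in the single-end WT column 56.9% were present and 19.6% absent in the paired-end WT column. For BRCA, 64.2% of 1249 were present and 15.5% absent. AROM and CERM lay between, with 58.7% and 62.3% present. Named loci present in a single-end column were present in the paired-end column of that genotype in between 92.8% and 97.0% of cases. In the other direction, from paired-end to single-end, between 84.2% and 89.0% of the unnamed loci remained present. In all, 499 unnamed loci, or 25.4%, had a genotype present in 1 layout and absent in the other, beside 5.72% of all loci that reached 1 FPKM and 2.96% of the named ones. The 5 highest of these, XLOC_021754, XLOC_013353, XLOC_016950, XLOC_009992 and XLOC_009926, were each between 5.24e+06 and 3.58e+07 FPKM in the paired-end AROM column and listed at 0 in the other 7.

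Most restricted loci had a pattern that sets 1 genotype apart, as most of the 14 possible patterns do. Consecutive loci were counted separately, so nothing is read from this majority. Of 14 possible patterns 11 occurred: 34 loci were present in a single genotype, 23 were absent in a single genotype and 14 divided the genotypes 2 against 2. Signal in BRCA alone was the commonest with 19 loci, followed by absence in BRCA alone with 14 and signal in CERM alone with 13. Among all loci that reached 1 FPKM these patterns made up 0.169%, 0.0941% and 0.157%. Signal in WT and AROM but not in CERM and BRCA was found at 6 loci, and signal in all but WT at 5, beside 0.0376% and 0.0314% of all loci. Absence in CERM alone and signal in CERM and BRCA together had 4 loci each (0.0251% of all loci for either). AROM with CERM and AROM with BRCA had 2 each (0.0125% and 0.0188%). WT alone and AROM alone had 1 locus each (0.00627%). Since the same values chose the loci, nothing is read from these shares. The 3 patterns that did not occur were AROM alone absent, WT with CERM, and WT with BRCA. Among the 22 named loci 12 were present in CERM alone and 8 in BRCA alone.

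**Figure D2:**
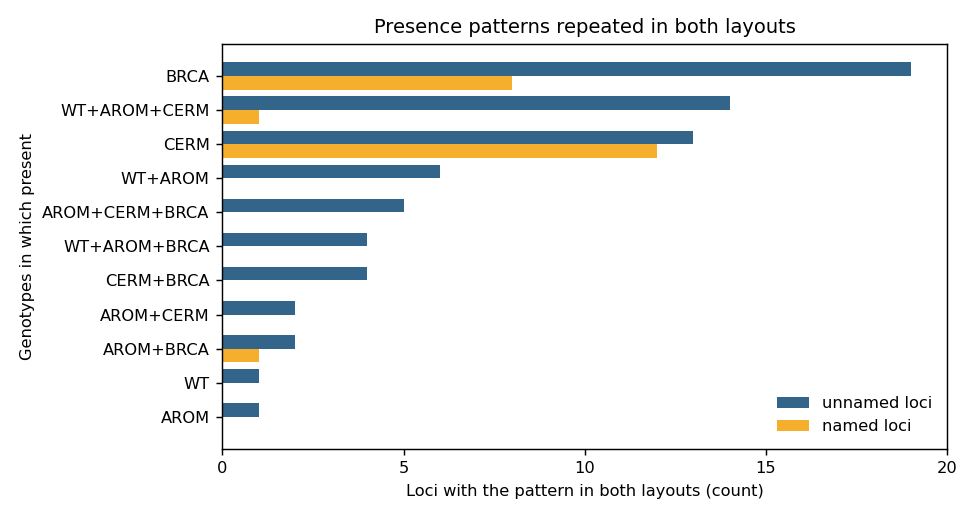
Number of unnamed and named loci with each presence pattern in both layouts; the vertical axis names the genotypes in which the locus was present. BRCA alone leads among unnamed loci with 19, and CERM alone leads among named loci with 12.

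The share of restricted loci was highest at high values among unnamed loci and lowest there among named loci. Of 669 unnamed loci whose highest value was 10 FPKM or more 46 were restricted (6.88%), and of 652 between 1 and 2 FPKM 5 were (0.767%). For named loci the shares were 0.0404% and 0.523%. Between 2 and 5 FPKM the shares were 3.28% (unnamed) and 0.336% (named), and between 5 and 10 FPKM 2.63% and 0.141%. The same values chose the loci, and a low highest value leaves little room above the limit for presence. Nothing is therefore read from these shares. The lowest present value of a restricted locus had a median of 10.5 FPKM, and 20 of the 71 had it under 2 FPKM. At 54 of the 71 every absent column was listed at 0, and a listed 0 can be a failed estimate. Some absent column was above 0 at 17.

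Just inside the limits stood XLOC_016738, whose BRCA values were 1.07 and 1.02 FPKM, and XLOC_001474, lowest at 1.09 in paired-end AROM. Just outside stood XLOC_011018, with 1.37 and 0.983 FPKM in CERM and 0 elsewhere, and XLOC_016737, with 0.974 and 1.05 FPKM in BRCA. The highest absent values inside were 0.0969 FPKM at XLOC_020064 and 0.0955 at XLOC_027693. XLOC_021335 (0.108) and XLOC_027743 (0.122) were just above the limit for absence.

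**Figure D3:**
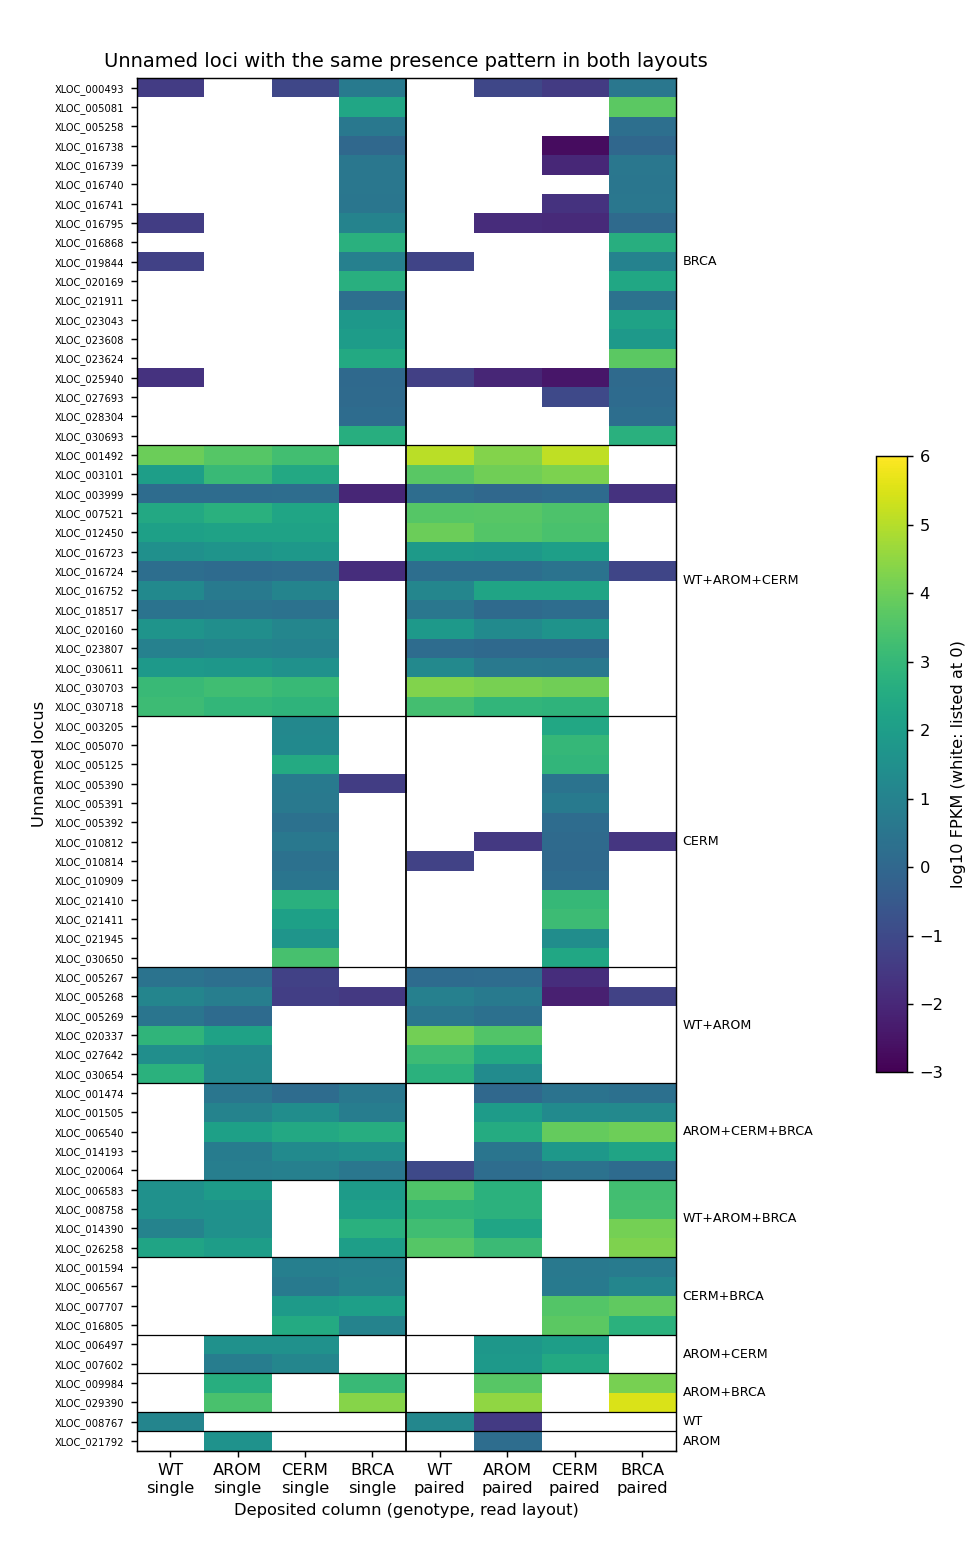
FPKM on a log10 colour scale (white: listed at 0) of the 71 restricted unnamed loci in rows and the 8 columns of the table, single-end left and paired-end right; genotypes of each pattern are named at the right. Each locus is present in the same genotypes left and right of the centre line, and most absent cells are white.

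Levels of the restricted loci separated into steady and unsteady ones. A locus was called steady when its paired-end value lay within 3-fold of its single-end value in every genotype in which it was present, and 36 of the 71 were. Patterns with more present genotypes had more pairs of values to pass, so the numbers of steady loci cannot be compared between patterns. Of the 36 loci with a highest value under 100 FPKM 27 were steady, and of the 35 at 100 FPKM or more 9 were. The highest value was taken over both layouts, so a rise between layouts also moved a locus to the upper group. XLOC_007602, for instance, was at 13.6 FPKM in CERM single-end and 302 paired-end. Nothing is therefore read from this split. Over all present pairs of values at restricted loci, 131 in number, the paired-end value was at least 10 times the single-end value in 32.8%. Among unnamed loci in general this was 10.3% of 3012 pairs, and among named loci 0.0732% of 49195. The largest value at a restricted locus was 312713 FPKM, in paired-end BRCA at XLOC_029390, where single-end BRCA was 22847. Of the 17 loci with an absent column above 0, 14 were steady, beside 36 of all 71. These loci also differ in pattern from the rest, and steadiness cannot be compared between patterns, so nothing is read from this. The role of locus length was not tested, since the table gives no lengths.

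**Figure D4:**
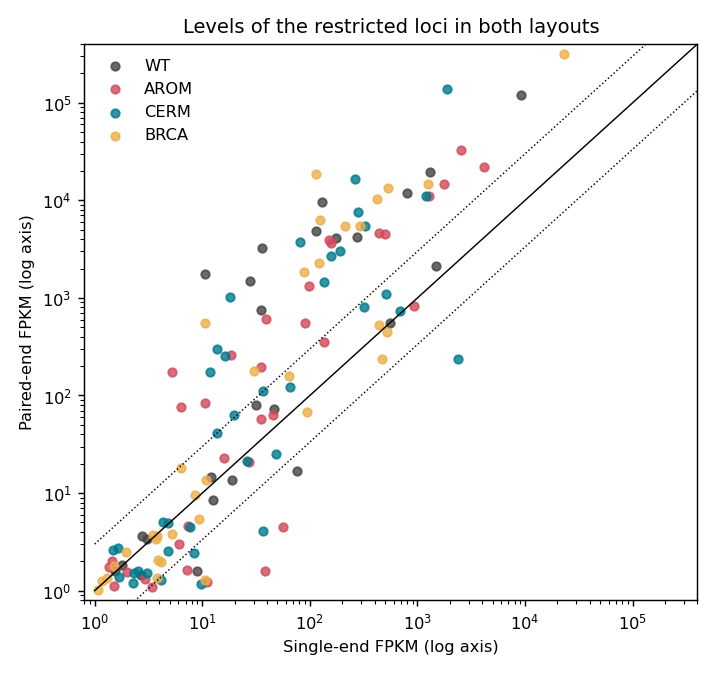
Paired-end against single-end FPKM (both log axes) for each genotype in which a restricted unnamed locus was present in both layouts, 131 points coloured by genotype; the solid line marks equal values and the dotted lines 3-fold. Between the dotted lines lie 63 of the 131 points, and 32.8% of all points lie at least 10-fold above equality.

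Signal in BRCA alone was steady at 16 of 19 loci. BRCA had 2 libraries in each layout, while library numbers of the other genotypes differed between layouts. The summed luminal genes were at 676 FPKM single-end and 666 paired-end in BRCA. They were at 694 and 553 in WT, 348 and 203 in AROM, and 485 and 468 in CERM. Whether the same BRCA animals were read in both layouts was not tested, so a repeat in BRCA need not be a separate observation. XLOC_016868 was at 517 FPKM single-end and 446 paired-end, XLOC_030693 at 442 and 532, and XLOC_020169 at 469 and 235, each with 0 in the other 6 columns. XLOC_023608 was at 93.1 and 67.5 FPKM. Unsteady were XLOC_023624 (290 and 5518 FPKM), XLOC_005081 (213 and 5439) and XLOC_016795 (10.6 and 1.28). At low levels, a run of 4 consecutive numbers, XLOC_016738 to XLOC_016741, had BRCA values of 1.07, 3.82, 3.72 and 3.50 FPKM single-end and 1.02, 3.62, 3.39 and 3.68 paired-end. No other column of the run was above 0.0210 FPKM. XLOC_016737, 1 number before, narrowly missed the limit as given above.

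Some BRCA loci lay between genes expressed in all genotypes. XLOC_019844, at 8.55 FPKM single-end and 9.60 paired-end and at most 0.0718 in any other column, is numbered between Rpl11, a ribosomal protein gene, and Kdm1a, a histone demethylase gene. Rpl11 was lower in BRCA than the mean of the other genotypes by 0.26 and 0.18 on the log2(FPKM + 1) scale, and Kdm1a higher by 0.29 and 0.48. XLOC_000493, at 5.25 and 3.77 FPKM in BRCA and at most 0.0836 elsewhere, lies between Stx6, a syntaxin gene of vesicle fusion, and Acbd6. The other genotypes' Stx6 values averaged close to that of BRCA, with differences of -0.08 and 0.02. Acbd6 was lower in BRCA in both layouts, with differences of -0.49 and -0.39. Neither locus was accompanied by a change of 2-fold in a flanking gene.

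XLOC_023043, at 63.5 FPKM single-end and 157 paired-end in BRCA and 0 elsewhere, is numbered after 4930515G16Rik and before Rpia. In the GENCODE M21 annotation 165 genes of the immunoglobulin kappa light chain locus start between these genes, and the table lists 31 unnamed loci there. B and T cell genes were also higher in the BRCA columns. Cd79a, a B cell receptor gene, was at 16.0 and 15.5 FPKM in BRCA and at most 2.40 elsewhere. Ccr7, a chemokine receptor gene of lymphocytes, was at 5.70 and 5.71 FPKM in BRCA and at most 0.775 elsewhere. Cd3e, a T cell receptor complex gene with 2 loci, was at 6.19 and 7.78 FPKM in BRCA at its higher locus and between 1.62 and 5.22 in the other 6 columns. In whole glands more cells of a type and more RNA per cell cannot be told apart, and the part of these cells in the BRCA loci was not tested. Pax5, the B cell transcription factor gene, was among the 8 named loci present in BRCA alone (1.14 and 1.07 FPKM), as was Cr2, a complement receptor gene of B cells (1.53 and 1.48 FPKM). Both were picked after their values were seen. The others were Lyg2, Il22ra2, 2310057J18Rik, a joint locus of Dcpp1, Dcpp2 and Dcpp3, H28 and Mageb16. Nothing is therefore read from these 2 about the 8 as a set.

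Absence in BRCA alone spanned levels from near 1 FPKM to very high ones. XLOC_001492 had single-end values of 9182 FPKM (WT), 4125 (AROM) and 1900.5 (CERM) and 0 in BRCA. Its paired-end values were 118834, 22145 and 138676 FPKM, again with 0 in BRCA. XLOC_030718 was steadier, with 1478, 934 and 689 FPKM single-end and 2110.4, 826 and 741 paired-end. XLOC_030703, XLOC_007521 and XLOC_012450, also among the highest of this pattern, were at 0 in BRCA and unsteady. Their paired-end values were between 8.41 and 73.0 times the single-end ones. In all 5 of the 14 loci were steady. At 2 of the steady loci BRCA was below 0.1 FPKM but above 0. XLOC_003999 had single-end values of 1.54 FPKM (WT), 1.51 (AROM), 1.67 (CERM) and 0.00905 (BRCA), and paired-end values of 1.61, 1.13, 1.38 and 0.0215. XLOC_016724 was at 1.78, 1.36, 1.66 and 0.0149 FPKM single-end and at 1.82, 1.76, 2.71 and 0.0739 paired-end.

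XLOC_016723, the number before XLOC_016724, had the same pattern at 31.7, 45.1 and 65.4 FPKM in WT, AROM and CERM single-end, at 80.6, 62.4 and 122 paired-end, and at 0 in BRCA. XLOC_003999 is numbered between Rprml and Wnt3, a Wnt ligand gene that was called absent in all 8 columns. Rprml had paired-end values of 5.29 FPKM (WT), 9.06 (AROM), 0.743 (CERM) and 1.55 (BRCA), and single-end values of 5.86 in WT, more in AROM, 1.24 in CERM and 1.52 in BRCA. Rprml was thus low in CERM as well as BRCA, while the locus beside it was present in CERM. The 1 named locus absent in BRCA alone was 1 of 3 loci of Camk2b, a calmodulin kinase gene, at 8.86, 3.36 and 3.60 FPKM in WT, AROM and CERM single-end and 0 in BRCA.

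Signal in CERM alone included 2 loci inside the keratin-associated protein genes, which encode matrix proteins of the hair shaft. XLOC_010812 was at 4.09 FPKM single-end and 1.30 paired-end in CERM and at most 0.0325 in any other column. XLOC_010814 was at 2.29 and 1.20 FPKM in CERM and at most 0.0581 elsewhere. Between them lies Krtap16-8, at 3.10 and 1.82 FPKM in CERM, and before them Krtap22-2, at 5.93 and 4.19 FPKM; both were absent in the other 3 genotypes. A further unnamed locus of the stretch, XLOC_010808, was at 1.65 and 0.712 FPKM in CERM, with 0.103 in single-end BRCA.

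Of 53 loci whose symbols include Krtap, a group chosen after its values were seen, 29 reached 1 FPKM. CERM was the highest genotype in both layouts at 28 of these 29, beside 9.1% of all 15948 loci that reached 1 FPKM, and 6 were present in CERM alone, the pattern of 0.157% of all loci. Since the group was chosen for its values, nothing is read from these counts. The levels summed over the 53 loci were 128 and 80.2 FPKM in CERM, 5.51 and 4.54 in WT, 2.60 and 2.80 in BRCA, and 0.272 and 0.144 in AROM. The epidermal gene Lor, which encodes loricrin, went the other way and was at 0.0580 and 0.0555 FPKM in CERM against 0.853 and 1.95 in WT. The skin list (Krt10 at 2 loci, and Lor; Krt1 and Flg had no locus of their own) summed to 2.47 and 1.24 FPKM in CERM and between 1.65 and 8.97 in the other columns. Skin in the dissected glands was not tested as a source.

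**Figure D5:**
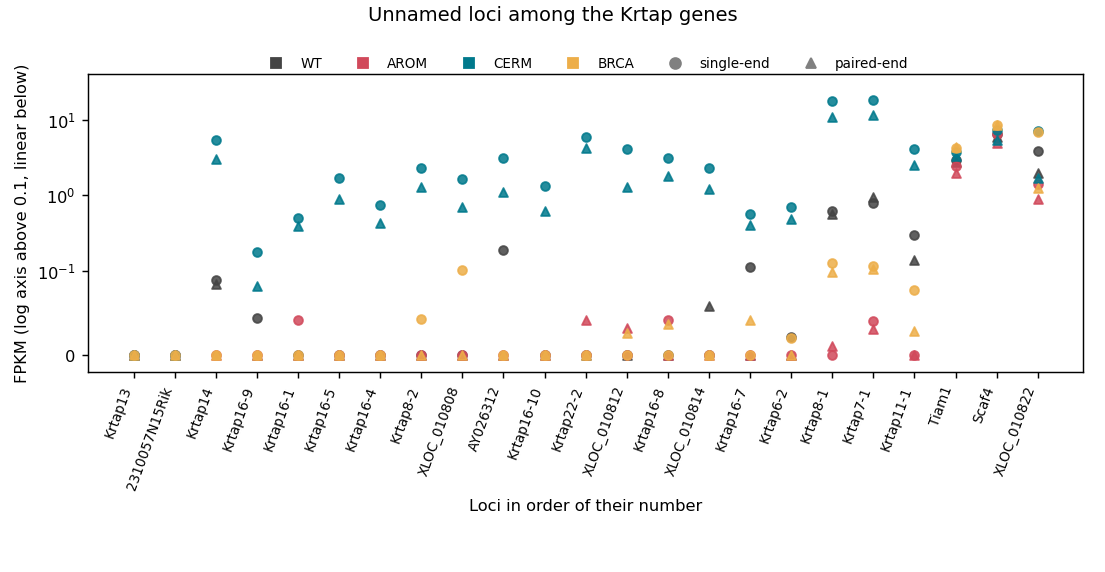
FPKM (log axis above 0.1, linear below) of 23 loci in order of their number across a stretch of Krtap genes, by genotype (colour) and layout (circle single-end, triangle paired-end); unnamed loci carry their locus number. XLOC_010812 and XLOC_010814 are at 1.20 FPKM or more in CERM and under 0.1 in the other genotypes, as do Krtap22-2 and Krtap16-8 beside them, while Krtap16-7 and Krtap6-2 stay under 1 FPKM in CERM and Tiam1 and Scaf4 at the right are present in all genotypes.

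A second pair of CERM loci was numbered between Gbp4 and Gbp10, genes of the guanylate-binding proteins that interferons induce. XLOC_021410 was at 505 FPKM single-end and 1097 paired-end, and XLOC_021411 at 135 and 1468, with 0 in the other 6 columns. Gbp10 was at 5.52 and 5.63 FPKM in CERM and between 0.193 and 0.944 in the others, and Gbp4 at 9.38 and 6.01 FPKM in CERM and between 3.44 and 5.41. Members of a gene family can be similar in sequence and may share reads. Elsewhere XLOC_005390, XLOC_005391 and XLOC_005392 made a run at 4.84, 4.31 and 2.33 FPKM single-end and 2.58, 5.04 and 1.51 paired-end. XLOC_005125 (318 and 807 FPKM) and XLOC_021945 (48.7 and 25.3 FPKM) were higher, and XLOC_030650 went from 2388 FPKM single-end to 234 paired-end. Steady levels were found at 8 of the 13.

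Flanking genes were measured by the same libraries but were not used to choose the loci. Of the 71 loci 10 had named loci of the same chromosome, strand and order on both sides. At 4 of the 10 a flanking gene was at least 2-fold apart in the direction of the locus in both layouts. Those were the Krtap22-2 flank of XLOC_010812 and XLOC_010814 (2.79 single-end and 2.35 paired-end on the log2(FPKM + 1) scale) and the Gbp10 flank of XLOC_021410 and XLOC_021411 (2.26 and 2.15). As 2 pairs of loci share these flanks, they are 2 neighbourhoods, and the 10 loci are not separate observations. Krtap22-2 stands 3 numbers before XLOC_010814, with the named Krtap16-8 nearer to it. For the 728 unnamed loci with such flanks, under the same genotype splits, the share was 2.54%. Rprml beside XLOC_003999 came nearest among the rest, with 1.04 and 0.91.

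Patterns that joined WT with AROM against CERM with BRCA were steady at 4 of 6 loci. The consecutive numbers XLOC_005267, XLOC_005268 and XLOC_005269 made one run. XLOC_005268 was at 12.6 FPKM in WT and 7.33 in AROM single-end and at 8.48 and 4.60 paired-end, with at most 0.0587 in CERM and BRCA. XLOC_005269 was at 3.07 and 1.45 FPKM single-end and 3.38 and 2.02 paired-end, and XLOC_005267 at 2.67 and 1.99, then 1.46 and 1.55. XLOC_030654 was far higher in WT, at 551 FPKM single-end and 559 paired-end, than in AROM, at 15.9 and 22.7, and was 0 in CERM and BRCA. XLOC_020337 and XLOC_027642 were unsteady, with paired-end values between 14.2 and 53.1 times the single-end ones.

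The reverse split, CERM with BRCA against WT with AROM, held 2 steady loci at moderate levels. XLOC_001594 was at 7.75 FPKM in CERM and 9.32 in BRCA single-end and at 4.49 and 5.39 paired-end. XLOC_006567 was at 4.81 and 10.9 FPKM single-end and 4.95 and 13.6 paired-end. Both were listed at 0 in WT and AROM. XLOC_007707 and XLOC_016805 had the pattern with paired-end values at least 16.7 times the single-end ones. AROM with BRCA was found at XLOC_009984 (437 and 1251 FPKM single-end, 4595 and 14749 paired-end) and at XLOC_029390, both at 0 in WT and CERM.

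Absence in WT alone, the pattern of the 3 genotypes that carry an MMTV construct, was found at 5 loci, none of them steady. XLOC_001505 was at 10.6 FPKM in AROM, 26.1 in CERM and 6.35 in BRCA single-end and at 84.7, 21.1 and 17.9 paired-end, with 0 in WT. XLOC_020064 was at 7.20, 8.47 and 3.82 FPKM single-end and 1.62, 2.44 and 1.36 paired-end. XLOC_014193 was highest in BRCA, at 30.4 and 179 FPKM, and lowest in AROM, at 6.08 and 3.03. XLOC_006540 was at 135, 280 and 421 FPKM single-end and at 354, 7645 and 10398 paired-end. In the paired-end columns alone 46 unnamed loci were absent in WT alone, against 10 in the single-end columns, and the paired-end WT column is the one that rests on 1 library by the labels. The part of library number in this difference was not tested.

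Absence in CERM alone was unsteady at all 4 loci, XLOC_006583, XLOC_008758, XLOC_014390 and XLOC_026258, whose paired-end values were between 5.54 and 165 times the single-end ones. WT alone was represented by XLOC_008767, at 12.2 FPKM single-end and 14.6 paired-end. Its highest value elsewhere was 0.0325, in paired-end AROM. AROM alone was represented by XLOC_021792, at 38.1 FPKM single-end and 1.61 paired-end, with 0 elsewhere.

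The numbering of the loci gives some idea of where they lie. Of consecutive named loci found in GENCODE M21, 99.7% were on the same chromosome, and starts rose in 99.6% of those also on the same strand. After the loci of both strands, each chromosome's numbers ended in a stretch with almost no names. A locus was put in such a stretch when at least 80% of the 51 loci centred on it had no name. The stretches held 59 of the 71 restricted loci (83.1%), 56.2% of all 1968 unnamed loci and 45.5% of the 387 present in all genotypes of both layouts. For these loci no flanking gene can be given. By the chromosome of the preceding named locus, chromosome 11 had 11 restricted loci among 90 unnamed ones (12.2%), 6 of them in the runs XLOC_005267 to XLOC_005269 and XLOC_005390 to XLOC_005392. Chromosome 2 had 10 of 141 (7.09%), 6 of them in the runs XLOC_016723 to XLOC_016724 and XLOC_016738 to XLOC_016741, and chromosome X had 6 of 77 (7.79%). The share over all chromosomes was the 3.61% given above.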

How the data were processed

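FPKM values were deposited by the authors in 1 table with 1 column for each of 4 genotypes and 2 layouts. The submitters' processing notes name Cufflinks, TopHat, Trim Galore, FastQC and build mm9. Versions, settings, strand handling and the pooling of libraries into columns were not stated there. All 8 columns were compared as deposited, with Python 3.11.15, pandas 2.3.3 and NumPy 2.4.6. No test was run, since no column holds a single library's value beside a replicate. Loci were named by rule: the 4 given cases, up to 5 per pattern with the highest lowest present value (39 loci), those nearest the limits, flanking genes, and loci with opposite calls. Low and steady loci, runs, XLOC_000854, the Krtap genes, the named loci present in BRCA alone and Camk2b were added after their values were seen. The 3-fold measure was added then as well. The members and lists were chosen with earlier results of these data known. GENCODE M21 is of a later build, so it served for names, chromosome and order only. On simulated data of 15948 loci, 200 of 200 planted patterns were recovered. The planted values were drawn clear of both limits, so this checked the code and says nothing about the real loci. 1 marker gene is not reported here. Alternatives are in the closing section.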

Additional observations from a re-analysis of the deposited data

Results flagged for a closer look

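At 6 unnamed loci 2 genotypes changed places between the layouts, each present where the other was absent; these differences were not tested. XLOC_029411 had single-end values of 295 FPKM (WT), 390 (AROM), 0 (CERM) and 169 (BRCA), and paired-end values of 0, 36186, 7679 and 10304. XLOC_001622 was at 153, 0, 353 and 204 FPKM in the same order single-end, and at 0, 2510.4, 11145 and 8483 paired-end. XLOC_023705 was at 6.24, 0, 14.4 and 5.72 FPKM single-end, and at 0, 36.6, 115 and 19.0 paired-end. XLOC_008775 was present in AROM alone at 9.07 FPKM single-end and in CERM alone at 829 paired-end, with 0 in its other 6 columns. XLOC_008797 was at 73.1, 33.4, 0 and 16.3 FPKM single-end, and at 14.7, 0, 13.5 and 0 paired-end. XLOC_021995 was at 2.63, 0, 4.13 and 0 FPKM single-end, and at 0, 51.0, 2.87 and 0 paired-end.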

How the results depend on the processing

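The 71 restricted unnamed loci (22 named; 19 in BRCA alone, 14 absent in BRCA alone, 13 in CERM alone) depended on both limits. With presence from 2 FPKM, named loci fell to 11 and BRCA alone to 12. With presence from 0.5 FPKM there were 113 unnamed and 47 named loci, 38 in BRCA alone and 20 in CERM alone. With absence under 0.5 FPKM there were 139 and 144, with 46 in BRCA alone and 20 in CERM alone. With absence only at exactly 0, named loci fell to 3 and BRCA alone to 11. With listed zeros not counted as absent, 3 unnamed and 5 named loci were left, 0 in BRCA alone, 2 absent in BRCA alone and 0 in CERM alone. Without WT, named loci came to 43. Among alternatives chosen after seeing the data, steady levels left 36 unnamed loci, with 5 absent in BRCA alone and 8 in CERM alone. A highest value under 100 FPKM left 36, 6 and 7. The 10-fold rule gave 57 named loci and 21 in CERM alone. Median-ratio scaling (70 unnamed loci) and counting runs once stayed within 1.5 times; the filters on low values could not change a count, since each restricted locus is present in both layouts. The share of flanked loci with a 2-fold flank was 40%, from loci that share their flanks in pairs. This share was 50% with a pseudocount of 0.1 and 30% with flanks within 2 numbers. The log2 gap between present and absent genotypes, whose sign the rule fixes for the 71 loci, moved by more than the SD of its layouts in 73 of 148 recalculations. That of XLOC_019271, -0.02 over both layouts, became 1.26 with a pseudocount of 0.1. No paired analysis was possible because the table has no column per library; leaving out replicates was not run for the same reason. Depth is unknown, so no counting error can be given.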
